A study of Mus musculus with 4 samples.

Results

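The Trim30 and Trim5-like genes are 8 neighbouring genes on mouse chromosome 7: Trim34a, Trim5, Trim12a, Trim12c, Trim30b, Trim30c, Trim30a and Trim30d. They were chosen by name and position, and all 8 were found in the RefSeq annotation, out of 21887 protein-coding genes on the main chromosomes. The cluster, taken from 5 kb before Trim34a to 5 kb after Trim30d, spans chr7:104239448-104512853 (mm10), or 273.4 kb. The choice of this locus rested in part on H3K9me3 peaks of these same lists, in which Trim30a had peaks at its ends in the deleted list alone, so the differences between the lists given here are descriptions and carry no test.

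The cells were primary mouse muscle stem cells, isolated magnetically and cultured. All of them carried loxP-flanked Setdb1 and a Cre recombinase under Pax7 that tamoxifen activates, and the label of the control library writes the genotype as Setdb1lox/lox;Pax7GakaCreERT2. The last digit of that name differs between the labels of the libraries, and no difference in genotype is otherwise described. The control culture received ethanol and the other received 4-hydroxytamoxifen, which induces the deletion of Setdb1, with treatment for 72 h. H3K9me3 was measured in 1 library per condition by chromatin immunoprecipitation after micrococcal nuclease digestion, so no difference has a replicate check. The deposited peak lists are called the control list and the deleted list. Because the Cre depends on Pax7, only cells that express Pax7 during treatment can lose Setdb1, and the share of cells that lost it is not given in the sources used here.

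The proteins of this family join a RING ubiquitin ligase domain to a coiled coil, and most end in a B30.2 domain that binds the target. Primate TRIM5 is known for binding the capsids of incoming retroviruses, and rodents have several copies of Trim5-like and Trim30-like genes at the matching locus. Trim30a restrains Toll-like receptor signalling to NF-kappaB. Many genes of the family respond to interferon. H3K9me3 is a histone mark of silent chromatin, and SETDB1 is one of the enzymes that write it, among other places on endogenous retroviruses, to which it is brought by another TRIM protein, TRIM28.

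The promoters of most of these genes fall into families of near-copies. Reads from copies can be hard to place, and whether this affected the peaks was not tested. All members but Trim34a are read from the minus strand. The 110 bases before the start are shown for the Trim30 genes with peaks and for 2 Trim5-like genes (RefSeq, GRCm38.p6, minus strand, 5' to 3'). Capitals mark TTTC and TTTC with any 2 bases between them, which on the other strand is the pair of GAAA that forms the core of the interferon-stimulated response element.
Trim30a (chr7:104465194-104465303, minus strand): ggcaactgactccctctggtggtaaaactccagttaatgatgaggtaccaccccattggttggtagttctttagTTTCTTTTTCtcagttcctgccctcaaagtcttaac
Trim30d (chr7:104507850-104507959, minus strand): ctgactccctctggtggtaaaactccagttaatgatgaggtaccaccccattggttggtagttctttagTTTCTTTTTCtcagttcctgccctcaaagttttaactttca
Trim30a, inner start (chr7:104446126-104446235, minus strand): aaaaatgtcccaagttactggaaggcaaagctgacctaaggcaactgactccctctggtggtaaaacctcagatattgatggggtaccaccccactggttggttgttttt
Trim30c (chr7:104400779-104400888, minus strand): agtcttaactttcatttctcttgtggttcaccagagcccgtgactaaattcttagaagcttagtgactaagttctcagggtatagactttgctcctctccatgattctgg
Trim5 (chr7:104288107-104288216, minus strand): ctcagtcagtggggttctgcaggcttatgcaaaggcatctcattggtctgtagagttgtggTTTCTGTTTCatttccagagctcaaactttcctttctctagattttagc
Trim12c (chr7:104353350-104353459, minus strand): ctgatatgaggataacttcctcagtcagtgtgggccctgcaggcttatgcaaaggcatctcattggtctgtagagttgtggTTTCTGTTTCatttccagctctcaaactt

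Trim30a and Trim30d were 92.6% identical over 244 aligned positions of the 250 bases before their starts. Trim30c matched Trim30a at 90.6% over 149 positions, and the inner start of Trim30a matched its outer start at 87.4% over 215. Trim5 and Trim12a were 100% identical over 191 positions, and Trim5 and Trim12c 95.2% over 230. The element core, searched on both strands, lay before the start in 4 of 9 annotated starts of the members (those of Trim5, Trim12c, Trim30d and the outer start of Trim30a). In 3 more (Trim34a, Trim12a and the inner start of Trim30a) it lay in the 50 bases after the start, and in 2 (Trim30b and Trim30c) it was in neither stretch. Of 32851 promoters in the table, 2.98% held it in the 250 bases before the start and 3.44% held it when the 50 bases after were included. Starts within a family are near-copies, so their matches are not separate observations, and a match is a description of letters only. Trim34a and Trim30b lay outside these families, and their longest alignment was 31 positions at 74.2% identity, with each other.

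The cluster had lower H3K9me3 peak coverage than the 500 kb on either side, and its Trim30 end had more called peak coverage in the deleted list. Low coverage in the control list began below the cluster, at 1.61% and 0.412% in the steps of 25 kb next to it. In the control list 13 peaks covered 3.95% of the cluster, or 10.8 kb. In the deleted list 26 peaks covered 8.29%, or 22.7 kb, a deleted-to-control ratio of 2.10. Over chromosome 7 as a whole the ratio of covered length was 1.23, and over the autosomes other than 6 and 14 it was 1.05, so the whole chromosome shared the direction at a smaller ratio. Chromosomes 6 and 14 were left out of this last ratio only, and the gene and bin shares given later include them. At or above 2 on the authors' scale of -log10 q, the confidence of a peak, the cluster was covered at 0.996% and 1.24%, a difference of 0.241 points. Read depth is unknown, and deeper sequencing of 1 library cannot be told apart from more of the mark.

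The 2 ends of the cluster differed. From the start of the cluster to the midpoint between Trim12c and Trim30b, 114.9 kb with Trim34a, Trim5, Trim12a and Trim12c, there were 3 peaks in each list, covering 1.82% (control) and 1.72% (deleted). The other 158.5 kb, with the 4 Trim30 genes, held 10 control peaks covering 5.49% and 23 deleted-list peaks covering 13.1%, a ratio of 2.38. The difference of the cluster thus lay at its Trim30 end. In the deleted list that end was covered about as much as the 500 kb below the cluster, at 13.3%. The longest stretch without a peak was 99.8 kb in the control list, from 104303752 in Trim12a to 104403516 before Trim30a. In the deleted list it was 68.0 kb, from 104274388 in Trim5 to 104342374 in Trim12c.

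**Figure D1:**
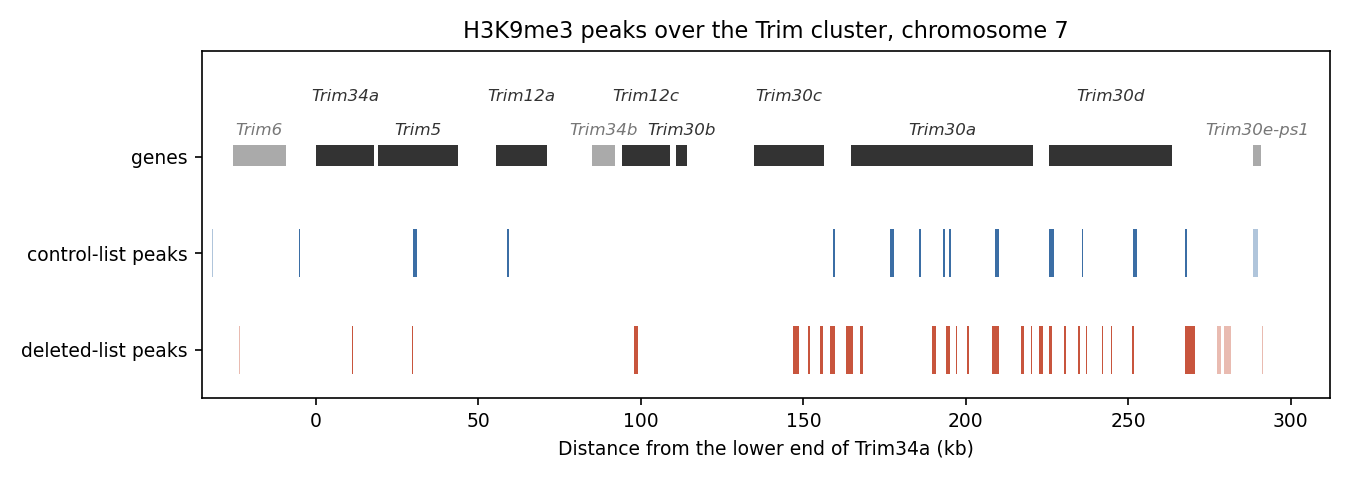
Deposited H3K9me3 peaks along the cluster, in kb from the lower end of Trim34a, with control-list peaks in blue, deleted-list peaks in red and genes above (members dark, neighbouring Trim genes grey, peaks outside the cluster pale). The 23 deleted-list peaks of the Trim30 end stand against 10 control peaks, while each list has 3 peaks over the Trim5-like end.

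A gene window here is the gene with 5 kb on both sides, and its coverage is the percent of bases under a peak. Of the 8 members, 5 had higher coverage in the deleted list and 2 had lower, while 1 had no peak in either. Among all protein-coding genes 18.7% were covered more and 16.7% less, and among the 7757 genes with a peak in either list 52.8% were covered more. On chromosome 7 the shares of all genes were 23.7% and 16.4%. Mean coverage of the members was 2.94% among control peaks and 6.53% among deleted-list peaks, a mean difference of 3.59 points and a median difference of 2.27 points. The same mean over all protein-coding genes was 2.89% in both lists, and the median difference was 0 points.

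Coverage of Trim30c (chr7:104379117-104400852) was 1.64% by control peaks and 14.8% by deleted-list peaks. The control list had 1 peak in its window, outside the gene, and the deleted list had 4 peaks, of which 3 lay in the gene. Trim30a (chr7:104409025-104465193), the longest member at 56169 bp, was covered at 6.61% by 7 control peaks and at 17.4% by 13 deleted-list peaks. Trim30d (chr7:104470014-104507853) was covered at 8.52% by 4 control peaks and at 12.6% by 9 deleted-list peaks. Its difference within the gene itself was smaller, at 9.18% and 9.86%. Within 3 kb of its 2 ends Trim30a was at 0% and 34.5%, the pattern for which it was picked out. The direction at Trim30a depended on weak peaks: at a -log10 q of 2 or more it was covered at 3.77% in the control and 2.10% in the deleted list. At that threshold Trim30c was at 0% and 2.20%, and Trim30d at 0% and 5.61%. These windows overlap, so a peak between Trim30c and Trim30a, or between Trim30a and Trim30d, counts in both. Trim30b (chr7:104355398-104358646), the shortest member at 3249 bp, had no peak in its window in either list, nor had Gm38525, a predicted gene that overlaps it. Trim30c and Trim30a were the 2 members that were higher by over 10 points in the deleted list, as were 2.38% of all protein-coding genes and 7.24% of those on chromosome 7. No member was lower by over 10 points, against 2.52% of all protein-coding genes and 3.99% of those on chromosome 7.

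**Figure D2:**
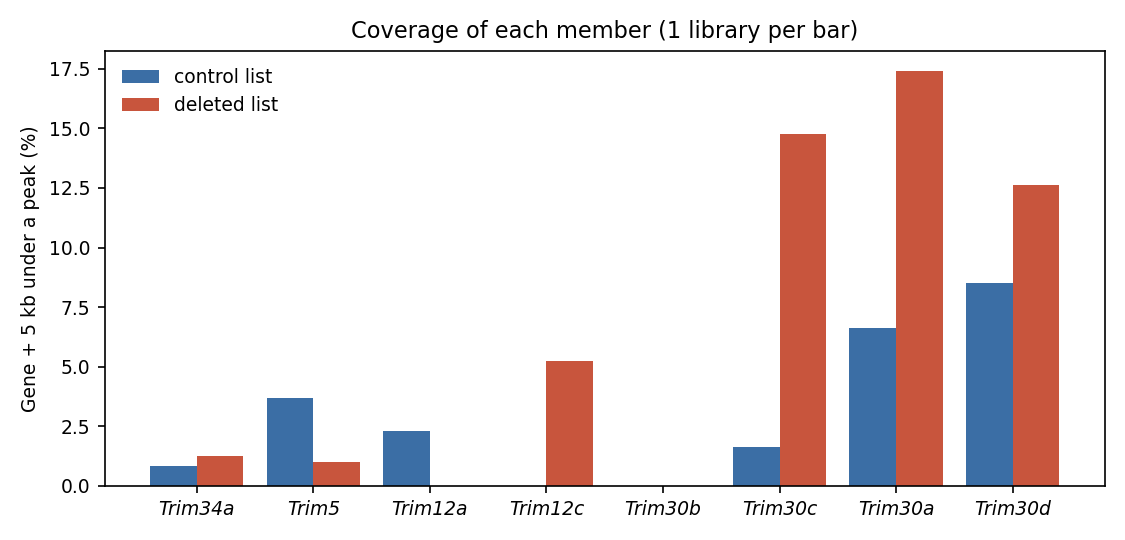
Percent of each gene window under control peaks (blue) and deleted-list peaks (red), in genome order, 1 library per bar and no error available. Trim30c, Trim30a and Trim30d reach 14.8%, 17.4% and 12.6% in the deleted list, and the other 5 members stay at or below 5.22% in both lists.

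The Trim5-like members held 0 or 1 peak each per list. Trim34a (chr7:104244448-104262244) was covered at 0.809% by a control peak before the gene and at 1.26% by a deleted-list peak within it. Trim5 (chr7:104263386-104288254), the mouse namesake of the capsid-binding factor, was covered at 3.68% and 0.989%, by peaks that overlapped each other. Trim12a (chr7:104299893-104315558) was covered at 2.28% by 1 control peak and had no peak in the deleted list. Trim12c (chr7:104338754-104353358), with a near-copy of its promoter, had no peak in the control list and was covered at 5.22% in the deleted list. Each of these values rests on a single peak. Trim34b, the other Trim gene inside the span, had no peak in its window in either list.

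The Trim genes next to the cluster did not mark a sharp end to it. Trim6, below Trim34a, was covered at 1.24% and 1.27%, as sparsely as its neighbours in the cluster. The pseudogene Trim30e-ps1, above Trim30d, was covered at 12.0% by 1 control peak and at 3.31% by 1 deleted-list peak, opposite in direction to the intact Trim30 genes with peaks. In the control list 56.0% of the pseudogene itself lay under 1 peak, and in the deleted list none of it did.

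Most peaks of the cluster were of low confidence and many were found in a single list. Of the 26 deleted-list peaks, 19 (73.1%, 95% Wilson interval 53.9 to 86.3%) overlapped no control peak. Of the 13 control peaks, 6 (46.2%, 23.2 to 70.9%) overlapped no deleted-list peak. The intervals cover counting error only, and they treat neighbouring peaks of the same library as separate observations. The locus was chosen in part on peaks found in the deleted list alone. The intervals are therefore no test against the shares of the whole lists or the flanks, and all these shares are descriptions. Over the whole lists 49.9% of deleted-list peaks and 47.0% of control peaks had no partner. In the flanks the deleted-list and control shares were 58.5% and 54.2% below, and 39.6% and 31.3% above. The lists shared 4.08 kb, which was 37.8% of the covered bases of the control list and 18.0% of those of the deleted list. Member genes take up most of the span, and within them lay 10 of the 13 control peaks and 23 of the 26 deleted-list peaks. Whether these lay in exons or introns was not analysed here. Each list had 4 peaks in the cluster with a -log10 q of 2 or more, and no peak reached 3. None of the 4 overlapped any of the other list's 4.

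The authors' fold enrichment and -log10 q, which rank peaks within a list, set the strongest peaks of the locus apart. In the deleted list the strongest was chr7:104466842-104468233, 1392 bp wide, with a fold of 3.39 and a -log10 q of 2.81, above 98.5% of that list. It lay between Trim30a and Trim30d, 1.65 kb upstream of the outer start of Trim30a, where the control list had no peak. The next, chr7:104395924-104396622 in Trim30c, had a fold of 3.08 and a -log10 q of 2.61, and it too had no control partner. In the control list the strongest was chr7:104439225-104439749 in Trim30a, with a fold of 3.09 and a -log10 q of 2.62, above 95.8% of its list. A deleted-list peak overlapped it, with a -log10 q of 1.29. The peak before Trim34a, chr7:104239345-104239672, had a fold of 3.11 and a -log10 q of 2.44 and had no partner.

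Starts of the Trim30 genes had closer peaks in the deleted list. No start of a member lay under a peak in either list. Within 1 kb of a start there was no control peak at any of the 9 starts, and there were deleted-list peaks at 3. Of all protein-coding starts, 4.20% had a control peak and 4.36% a deleted-list peak that close. Both starts of Trim30a are among the 3, and Trim30a was picked out for deleted-list peaks at its ends. The count is therefore a description and no separate support. At the outer start of Trim30a the nearest control peak was 4.74 kb away and the nearest deleted-list peak 0.290 kb. At the inner start of Trim30a the distances were 6.38 and 0.637 kb, and at Trim30c 2.74 and 0.424 kb. All 3 of these deleted-list peaks lay downstream, inside the gene, next to the near-copy promoters printed earlier. They were weak, with -log10 q of 1.18, 1.19 and 1.23, above 8.51%, 9.40% and 14.1% of the list's peaks. The identities given earlier cover bases before the starts and not the sequence under these peaks. How reads that match several copies were placed is not given in the sources used here, and its part in these peaks was not tested. Trim30d, whose promoter resembles that of Trim30a most, had peaks at 4.14 and 4.09 kb. Within 5 kb each list had a peak at 4 of 9 starts, though not at the same 4, whereas 12.2% of all protein-coding starts had a control peak and 13.0% a deleted-list peak that close.

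**Figure D3:**
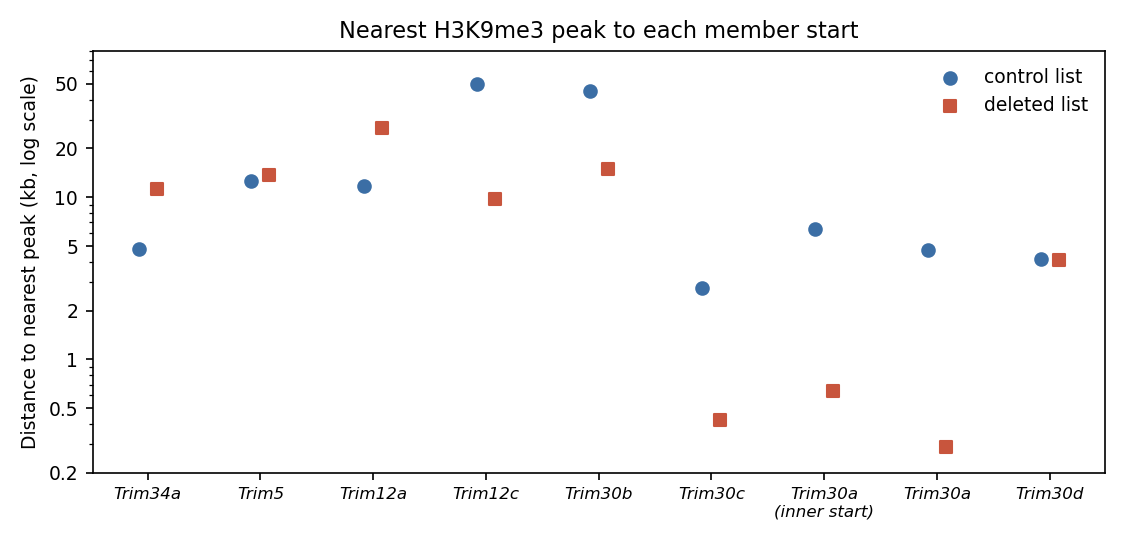
Distance from each annotated start to the nearest control peak (blue circles) and deleted-list peak (red squares), in kb on a log axis, 1 library per point. At Trim30c and at both starts of Trim30a the deleted-list peak is within 1 kb and the control peak is at 2.74 kb or more.

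The receptor genes on both sides had higher peak coverage on average than the members. In the 500 kb below the cluster, control peaks covered 14.2% and deleted-list peaks 13.3%, and in the 500 kb above it they covered 21.1% and 24.6%. The deleted-to-control ratios were 0.940 and 1.16, beside 2.10 for the cluster, where control coverage was lower. In points the differences were -0.848 below and 3.46 above, beside 4.35 for the cluster. The 23 intact olfactory receptor genes below had mean window coverage of 17.3% and 15.7%, and the 19 above had 26.1% and 24.8%. In the control list, 15 of 23 receptors below and 15 of 19 above were covered more than Trim30d, the member with the highest coverage there. In the deleted list, 8 of 23 and 13 of 19 were covered more than Trim30a, the highest member in that list. The intact receptors differed between the lists in both directions, with 10 covered more and 13 less below, and 8 more and 11 less above. The 5 receptor pseudogenes above were all covered more in the deleted list, by over 10 points each, with means of 25.5% and 49.0%. The windows of Olfr673-ps1 and Olfr674-ps1 overlap, so the 5 are not separate observations, and no share over all pseudogenes was computed. Of the 5 pseudogenes below, 3 were covered more and 1 less, with means of 13.7% in both lists.

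Single receptor genes differed by more than any member. Among intact receptors below the cluster the largest rise was at Olfr68, from 0% to 26.9%, and the largest fall at Olfr67, from 24.8% to 5.68%, and these are neighbours. The pseudogene Olfr636-ps1, also below, fell further, from 52.6% to 12.5%. Among intact receptors above the cluster the largest rise was at Olfr654, from 5.97% to 58.9%, and the largest fall at Olfr665, from 58.3% to 13.6%. The differences of 13.1 points at Trim30c and 10.8 points at Trim30a were thus within the range of the receptors beside them. The windows differ in length, with 11.2 kb at Olfr654, 31.7 kb at Trim30c and 66.2 kb at Trim30a. A peak of a given width moves a short window by more points, so these ranges are not on like terms. Among the 4 bins of 100 kb that the cluster reaches into, those starting at 104200001, 104300001, 104400001 and 104500001 were covered at 2.01% and 2.84%, 0.585% and 4.30%, 8.17% and 16.8%, and 10.0% and 21.6%. All 4 were covered more in the deleted list, as were 39.5% of all bins and 48.5% of those on chromosome 7. The last 2 were higher by over 5 points, as were 5.43% of all bins and 12.0% of those on chromosome 7. Of the last bin, 87.1% lies outside the cluster, over receptor genes that include Olfr653 and Olfr654.

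**Figure D4:**
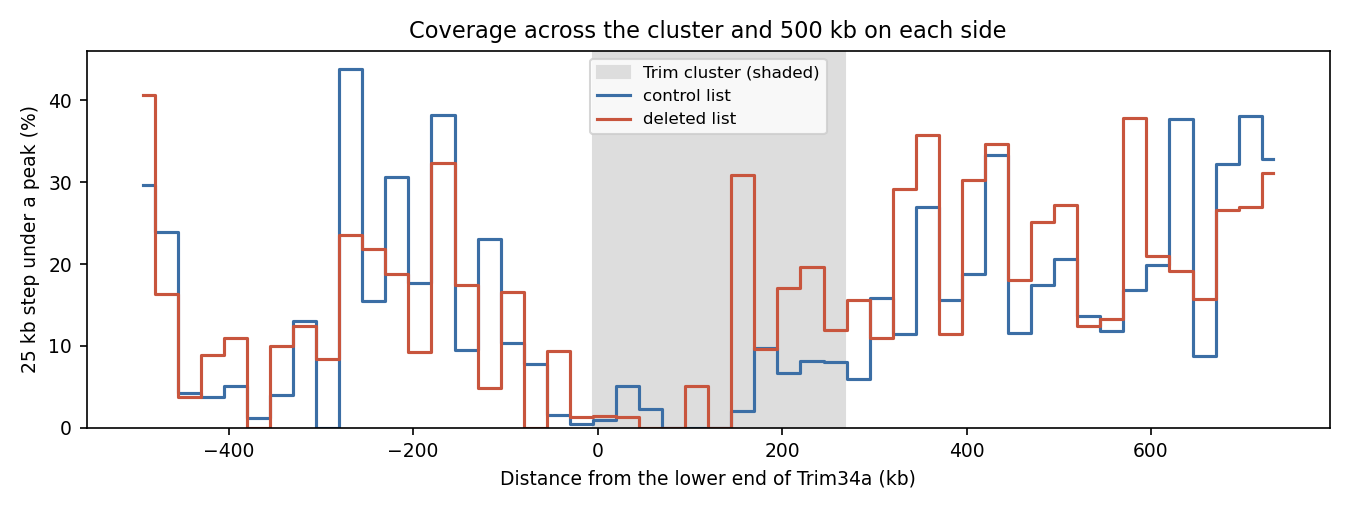
Percent of each 25 kb step under control peaks (blue) and deleted-list peaks (red), from 500 kb below to 500 kb above the cluster (shaded), in kb from the lower end of Trim34a. The lines run low over the Trim5-like end. Over the Trim30 end, where control coverage was 5.49% and deleted-list coverage 13.1%, they separate most in the step centred at 157 kb (2.08% and 30.9%). In the next step they nearly meet (9.74% and 9.58%). Steps above the cluster also separate, in both directions, such as 11.5% and 29.2% at 332 kb and 37.7% and 19.2% at 632 kb.

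**Figure D5:**
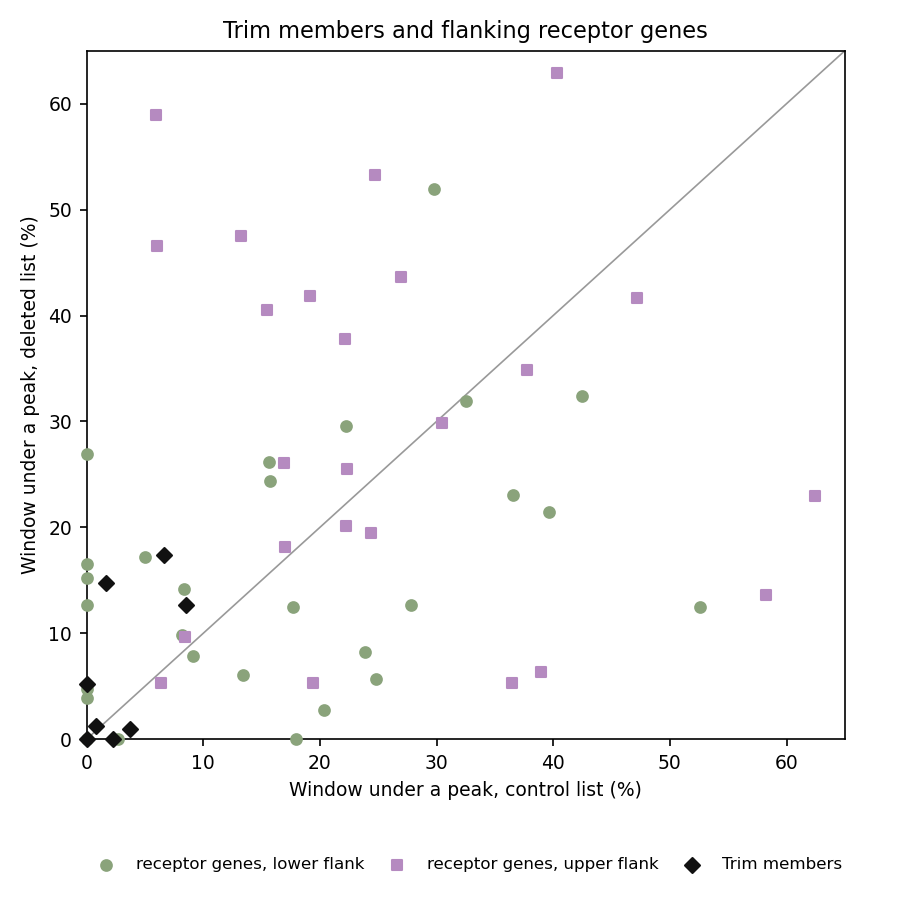
Window coverage in the control list (x axis, percent) against the deleted list (y axis, percent) for the 8 members (black diamonds) and the olfactory receptor genes and pseudogenes within 500 kb below (green circles) and above (purple squares). The members lie at or below 8.52% on the x axis and 17.4% on the y axis, and the receptors spread widely on both sides of the line of equality.

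Other genes of the family and pathway had low peak coverage, but 14130 of all 21887 protein-coding genes had no peak in either list. Mean coverage over all of these was 2.89% in both lists. Of them, 18.7% were covered more and 16.7% less, 2.38% were higher by over 10 points and 2.52% lower by over 10. The 59 other Trim family genes had mean coverage of 0.854% and 0.879%, with 11 covered more, 7 less and 41 without a peak in either list, and none differed by over 10 points. The largest fall among them was at Trim24 on chromosome 6, from 17.2% to 8.42%, and the largest rise at Trim75, from 0% to 5.93%. Among 27 restriction factors and nucleic acid sensors, 22 had no peak in either list, 2 were covered more and 3 less. Oas1a, which makes an activator of RNase L, was covered at 0% and 6.28%, and Oas3, of the same family, at 3.17% and 0%. The 9 interferon signalling genes examined, among them Ifnar1, Stat2 and Irf9, had no peak in either list. The 5 intact globin genes of the lower flank had means of 2.66% and 8.29%, and Hbb-bh2, the only one higher by over 10 points, had 0% and 17.4%.

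For the libraries as a whole, the control list held 105709 peaks and the deleted list 113503. At or above 2 on the -log10 q scale were 18.8% of control peaks and 11.5% of deleted-list peaks, so the deleted list held more weak peaks and fewer strong ones. Setdb1 was covered at 0.888% and 0%, which does not measure its deletion. Of 18 marker genes for muscle stem cells and other cells of muscle, 13 had no peak in either list, as had 14130 of all 21887 protein-coding genes. The 13 markers included Pax7, Myf5 and Myod1 of stem cells, and Pecam1, Cd68 and Pdgfra of other cells. The markers with a peak were Calcr, of stem cells, at 1.48% and 0%, and Adgre1 at 20.1% and 19.9%. Ptprc, Itgam and Dcn also had a peak, at or below 1.89% in both lists. Peak lists do not measure RNA, so they do not identify the cells.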

How the data were processed

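The authors deposited 2 lists of broad H3K9me3 peaks. The submitters' processing notes name the build mm10, MACS2 without a version, BWA 0.7.17-r1188 and ChIPseeker 1.30.3. Per the broadPeak layout, the deposited values are a fold enrichment (a linear ratio) and a −log10 q-value per peak. The settings of MACS2, the use of the input libraries, any pooling, the treatment of multiply mapped reads and the read depth are not given in the sources used here. The replicate number in the peak names differs from that in the labels, so each list was assigned by condition. Input libraries (1 per condition) were not used here.

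Gene positions and promoters came from RefSeq tables of GRCm38.p6, the NCBI form of mm10, and scaffolds were left out. Coverage was computed with Python 3.11.15, pandas 2.3.3 and numpy 2.4.6, tested on 200 simulated windows and checked against bedtools 2.31.1. Peaks were partners when they overlapped by at least 1 bp. Promoters were aligned locally with Biopython 1.88 (match 2, mismatch -3, gap opening -5, extension -2). With 1 library per group no test was made. The members, lists and naming rule were chosen with earlier results of these data known. The rule named all members, all other Trim genes in the span, and the receptor with the largest rise and fall on each flank. It also named list genes that differed by over 10 points, Setdb1 and Pax7. Trim24, Trim75, Oas1a, Oas3, Olfr636-ps1, Olfr653, the named markers other than Pax7 and the single peaks were chosen after their values were seen. Alternatives covered the peak threshold, list size, peak joining, windows, flanks and the overlap rule. The counting interval of a coverage difference is the 95% Wilson interval of both shares, with each 1 kb of window as 1 unit. A gene of the interferon list is not reported here. Protein sequences and the genome sequence under the peaks were not used here.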

Additional observations from a re-analysis of the deposited data

How the results depend on the processing

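Of 101 alternative values for 15 results, 60 kept their sign (or stayed at 0) and lay within the counting interval of the reported value (counts of members: within 1.5 times), 33 moved and 8 reversed. The 60 include all values of Trim30b, which had no peak in any setting. The interval is wide, so a kept value can be much smaller. At −log10 q of 2 or more, 0.666 points for the member mean and 2.20 points for Trim30c counted as kept, beside 3.59 and 13.1 as reported. Stricter thresholds keep fewer peaks by construction, and joined peaks are longer; beyond that the cause was not tested. No paired analysis was possible because only 1 H3K9me3 library exists per condition, and none could be left out. Unknown read depth limits every value.

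At −log10 q of 2 or more the cluster differed by 0.241 points (0.996% and 1.24%), the member mean was 0.573% and 1.24%, the receptor means were 2.66% and 1.11% below and 2.68% and 1.67% above, 2 members were covered more and 2 less, Trim30a turned to -1.67 points and Trim34a to -0.809, and 100% of the 4 control and 100% of the 4 deleted-list peaks had no partner. At 3 or more no peak remained in the cluster, so the differences of the cluster, the member mean and the lower flank were 0 and 0 members were covered more. With peaks joined within 5 kb the cluster differed by 20.0 points and the member mean by 16.2 points, the receptor means turned to 4.98 points below and 2.48 above, and 22.2% of deleted-list peaks had no partner. At gene ends (3 kb on either side) 3 members were covered more. With gene bodies alone the receptor means turned to 6.41 points below and 0.787 above. With 10 kb added, or a flank of 1 Mb, the mean above turned to 0.604 and 2.48 points. The share of deleted-list peaks without a partner was 88.5% when an overlap of 50% was required. When a peak within 5 kb counted, the shares were 23.1% for the control list and 38.5% for the deleted list.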
